A study of Homo sapiens with 24 samples.

Results

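The genes described here carry out and control protein folding in the endoplasmic reticulum (ER), the compartment where secreted and membrane proteins are made. They are 39 genes picked by symbol: 6 stress sensors and transcription factors, 8 chaperones and lectins, 4 J-domain cochaperones, 5 disulfide enzymes, 9 genes of ER-associated degradation, and 7 genes of translocation and transport. All 39 were found among the 23207 gene symbols measured in each library.

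When unfolded chains build up in the ER, membrane sensors (IRE1, encoded by ERN1, together with ATF6 and PERK) start the unfolded protein response. IRE1 splices the messenger RNA of XBP1 into a form that encodes an active transcription factor, while ATF6 is cut from its membrane anchor in the Golgi, and both then raise chaperones, folding enzymes and the machinery that returns misfolded proteins to the cytosol for degradation. Prostate epithelium is a secretory tissue, and LNCaP cells secrete prostate-specific antigen under androgen control. CREB3L4, one of the membrane-bound relatives of ATF6, is known as an androgen-induced gene of the prostate.

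RNA sequencing covered 24 libraries of LNCaP, a human prostate cancer line that responds to androgen, in 8 groups of 3. Every culture carried a lentiviral hairpin, delivered at a multiplicity of infection of 10, with 1 µg/ml puromycin for selection and 0.5 µg/ml for upkeep of the resulting stable clones. In charcoal-stripped serum, which is poor in androgens, a SIRT1 knockdown called 10 and the non-targeting control (NTC, a scrambled hairpin) each had 24 h of 1 nM dihydrotestosterone (DHT, an androgen) with 10 µM enzalutamide (an androgen receptor antagonist), of 1 nM DHT alone, or of vehicle. These cells had spent 48 h in fetal bovine serum (FBS) and 24 h in stripped serum beforehand. In FBS, which supplies androgens, a SIRT1 knockdown called shSIRT1 was set beside NTC. The labels give neither the number of clones behind a group nor whether shSIRT1 and 10 share a hairpin, so loss of SIRT1 and a difference between clones cannot be told apart, and nothing says that the 3 libraries of a group came from separate cultures, so p-values measure the spread between these libraries.

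Library totals were 25.2 to 35.1 M counts in stripped serum and 11.9 to 14.2 M in FBS. SIRT1, the deacetylase gene that the hairpins target, was lower in the knockdown by log2 fold changes of -1.56, -1.65 and -1.55 under DHT with enzalutamide, DHT and vehicle, and of -2.24 in FBS. KLK3, which encodes prostate-specific antigen, was higher with DHT than with vehicle by 3.97 in knockdown 10 and 3.23 in NTC, and lower with enzalutamide than with DHT alone by -2.87 in knockdown 10 and -2.60 in NTC. All 9 LNCaP markers were found, at a summed 2640 to 3690 TPM (a level scaled by gene length and library depth). Markers of basal cells (0 to 1.56), fibroblasts (5.08 to 10.7), leukocytes (7.44 to 16.6) and endothelium (0.54 to 4.57) summed to far less. Among the 3 knockdown 10 libraries with DHT, library 2 stood farthest from the others. The chi-square per gene was 38.6 between libraries 1 and 2, 22.4 between 2 and 3 and 12.5 between 1 and 3. Within the other stripped-serum groups it was 3.79 to 20.8. Counts of called genes are given without each of the 3 knockdown 10 DHT libraries, and calls that 1 of them ends are named. In FBS libraries 1 and 2 of each group were close to each other (1.55 and 1.6) and farther from library 3 (8.89 to 9.39).

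Promoter sequence was available for 34 of the 39 genes in RefSeq windows (GRCh38.p14) running from 250 bases before the transcription start to 50 after it. PDIA3, DERL1, DERL3, SEC24D and KDELR2 had no window. The ER stress response element, ERSE (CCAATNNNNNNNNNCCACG, searched on both strands), is the textbook binding site of ATF6 and the factor NF-Y. It lay in the windows of 8 of the 34 genes (23.5%), namely XBP1, HSPA5, HSP90B1, CALR, CANX, CRELD2, PDIA6 and SERP1, and in 25 of the 27305 genes of the table (0.0916%). The related ERSE-II (ATTGGNCCACG) lay in 3 (8.82%), namely HYOU1, SDF2L1 and HERPUD1, and in 0.0696% of all genes. The core TGACGTGG of the unfolded protein response element lay in HYOU1, DNAJC10 and KDELR3 (8.82%), and in 0.927% of all genes. A match is only a run of letters, and no mismatch was allowed, so a window without a match can still hold a near match. The 4 promoters shown are each the 200 bases before the start in the direction of the gene, with matches to ERSE or ERSE-II in capitals. HSPA5 (chr9:125241344-125241543, minus strand) and HERPUD1 (chr16:56931942-56932141, plus strand) passed in all 7 stripped-serum comparisons of knockdown, of DHT with vehicle and of enzalutamide with DHT alone, and hold 1 ERSE (HSPA5) and 1 ERSE-II (HERPUD1). HSP90B1 (chr12:103930210-103930409, plus strand) holds an ERSE on each strand. CREB3L4 (chr1:153968050-153968249, plus strand) had the most frequent calls among the transcription factors and holds none of the 3 motifs.
HSPA5: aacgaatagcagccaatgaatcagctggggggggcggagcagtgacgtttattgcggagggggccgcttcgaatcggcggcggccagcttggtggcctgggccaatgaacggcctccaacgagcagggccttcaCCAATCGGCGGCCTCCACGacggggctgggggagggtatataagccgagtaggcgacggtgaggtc
HERPUD1: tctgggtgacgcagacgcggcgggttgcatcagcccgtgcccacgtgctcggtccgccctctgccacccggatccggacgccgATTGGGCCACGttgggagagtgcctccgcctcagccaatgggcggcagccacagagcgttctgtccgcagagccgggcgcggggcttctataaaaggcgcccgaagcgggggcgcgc
HSP90B1: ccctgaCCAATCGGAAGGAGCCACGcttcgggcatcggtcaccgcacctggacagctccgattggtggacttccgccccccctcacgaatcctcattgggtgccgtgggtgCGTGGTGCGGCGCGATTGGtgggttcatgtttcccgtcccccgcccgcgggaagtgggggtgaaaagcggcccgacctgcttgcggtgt
CREB3L4: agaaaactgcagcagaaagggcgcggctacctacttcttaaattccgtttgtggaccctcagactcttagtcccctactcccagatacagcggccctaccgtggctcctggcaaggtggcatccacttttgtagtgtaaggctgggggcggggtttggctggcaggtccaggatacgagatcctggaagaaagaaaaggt
Counted from the start site, the HSPA5 element begins at position -66, the HERPUD1 element at -117, and the HSP90B1 elements at -194 and -89.

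Most of the 39 genes were abundant in LNCaP cells, and their order was much the same in the 8 groups. Averaged over the groups, the lectin chaperone CALR stood highest at 1120 TPM, followed by HSP90B1 at 755, the disulfide isomerase P4HB at 587, the translocon subunit SEC61B at 416, PDIA3 at 404 and HSPA5 (BiP, the main ER chaperone) at 345 TPM. The sensor genes were far lower, with ATF6 at 20.9 and ERN1 at 9.57 TPM. At the bottom were the KDEL receptor gene KDELR3 at 4.62 and the derlin gene DERL3 at 1.21 TPM. CREB3L1 was at 0 counts in every stripped-serum library and at 0, 0 and 2 counts in NTC in FBS, and it did not pass the filter on low counts, so 38 genes were tested in every comparison. Within stripped serum the group means of most genes lay close together, from a highest-to-lowest ratio of 1.04 for PDIA3 to 1.94 for CREB3L4 and 2.69 for DERL3. The summed level of the 39 genes was 5640 to 5780 TPM in knockdown 10 and 5460 to 5810 TPM in NTC under DHT with enzalutamide. Under DHT it was 6240, 5000 and 5640 TPM in knockdown 10 and 5740, 5680 and 5640 TPM in NTC, so that knockdown library 1 was above and library 2 below all 3 NTC libraries. In vehicle it was 5550 to 5880 TPM in knockdown 10 and 5620 to 5770 TPM in NTC. In such bulk libraries fewer cells of a type and less RNA per cell cannot be told apart.

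**Figure D1:**
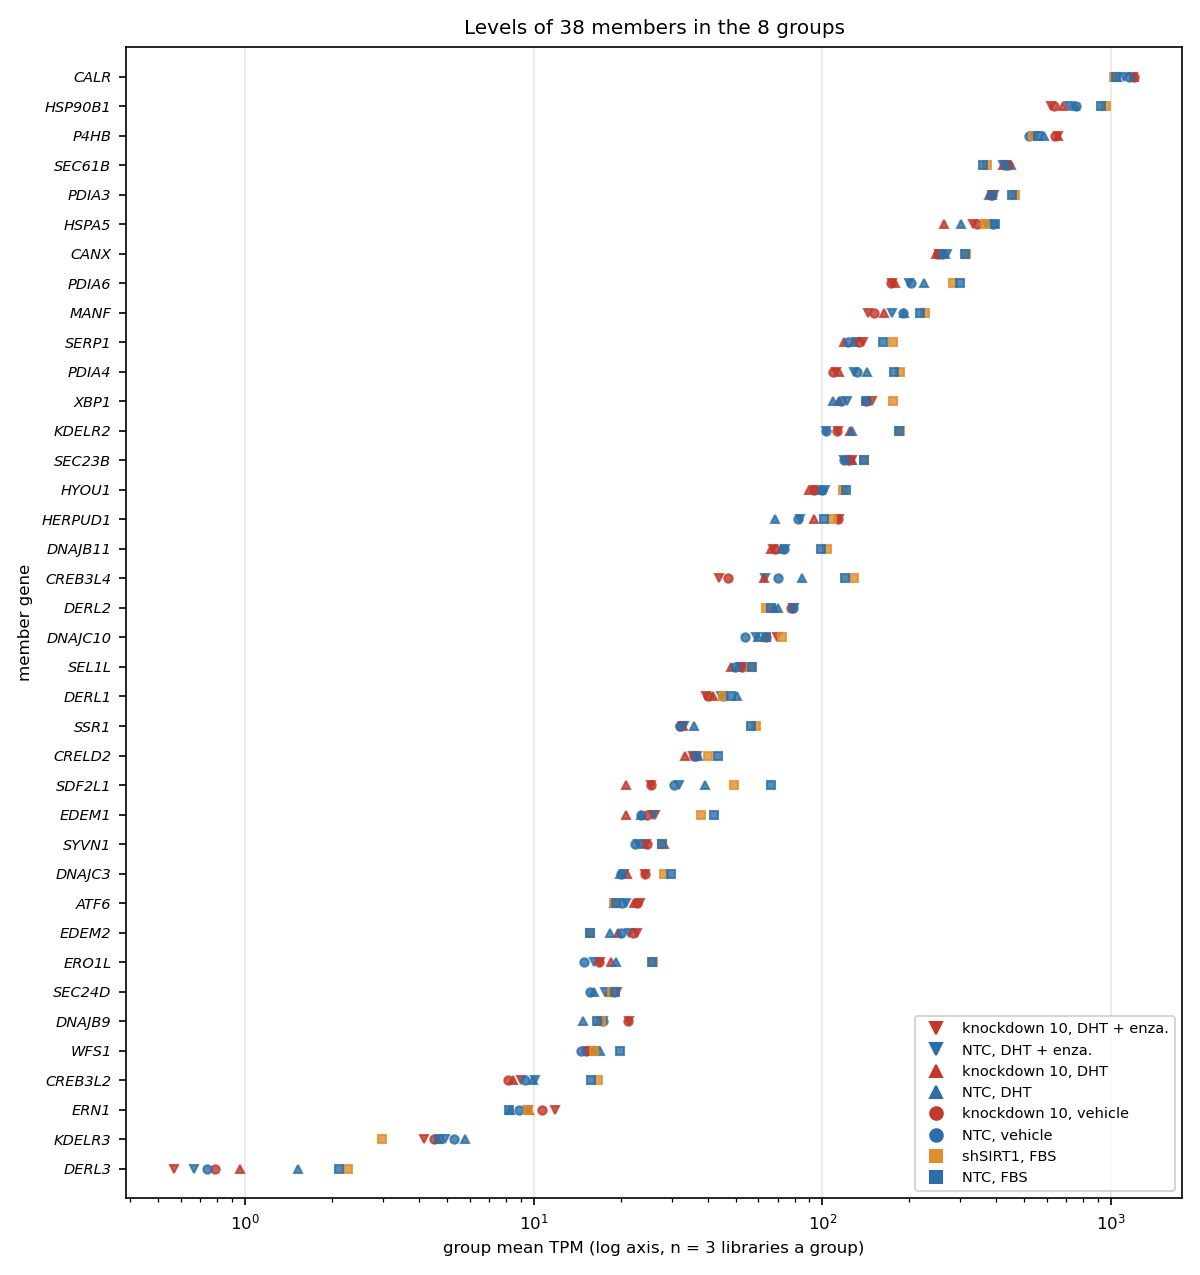
Group mean levels (TPM, log axis, n = 3 libraries a group) of 38 genes, ordered by their mean over the 8 groups, with CREB3L1 left out because it was at or near 0. Symbols of one gene lie close together next to the range between genes, which runs from 1.21 TPM for DERL3 to 1120 TPM for CALR, and CREB3L4, SDF2L1 and DERL3 spread most.

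The genes did not move as a block. A gene is said to have risen or fallen where the edgeR quasi-likelihood test, adjusted by Benjamini-Hochberg over all genes of the comparison, gave p under 0.05. Replicate number, by which libraries appeared to be paired, was left out of that fit and entered only where a block is named. In knockdown 10 against NTC, 6 of 38 rose and 8 fell under DHT with enzalutamide (15.8 and 21.1%), where 15.4% of all genes rose and 19.2% fell. Under DHT 4 rose and 8 fell (10.5 and 21.1%), with 19.5 and 23.5% of all genes. In vehicle 5 rose and 7 fell (13.2 and 18.4%), with 15.5 and 19.1% of all genes. These shares lie near those of all genes or below them, and the median log2 fold changes of the 38 genes were 0.00, -0.06 and 0.02. When replicate number entered the fit as a block, the vehicle count became 10 risen and 10 fallen. The all-gene shares come from the main fits. Counts from other fits have no such share beside them here and cannot be read against those of the main fits. Leaving out single libraries, the count under DHT with enzalutamide was 9 without knockdown 10 library 3, 8 without NTC library 2 and 7 without NTC library 3, and the count under DHT was 15, 12 and 11 without knockdown 10 library 1, 2 and 3. In FBS, shSIRT1 against NTC gave 1 risen gene (2.63%, XBP1) and none fallen, with 0.509 and 2.21% of all genes, and 2 and 2 with the block. The FBS count was 0 with libraries 1 and 2 of each group summed, 13 without both libraries numbered 3, and 0 to 2 with single libraries left out. The 13 rest on the spread between libraries 1 and 2 alone. Their chi-square per gene was 1.55 and 1.6, against 8.89 to 9.39 in pairs with library 3, so that fit misses most of the spread seen in FBS.

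The androgen comparisons gave counts of the same order. With DHT against vehicle 3 genes rose and 4 fell in knockdown 10 (7.89 and 10.5%, with 13.3 and 8.92% of all genes), and 6 rose and 3 fell in NTC (15.8 and 7.89%, with 17.4 and 12.5% of all genes). With DHT and enzalutamide against DHT 7 rose and 4 fell in knockdown 10 (18.4 and 10.5%, with 8.08 and 12.2% of all genes), and 4 rose and 5 fell in NTC (10.5 and 13.2%, with 12.6 and 16.6% of all genes). The share of risen genes in knockdown 10 under enzalutamide is the one count that lies well above that of all genes, and it was 3 risen and 3 fallen without knockdown 10 DHT library 1. Without DHT library 2 and 3 the enzalutamide total in knockdown 10 was 10 and 9, it was 7 without enzalutamide library 1 or 3, and it was 7 in a fit of only the groups compared. The DHT total in knockdown 10 was 4, 8 and 7 without DHT library 1, 2 and 3, 3 without vehicle library 1 and 4 without vehicle library 3. In NTC it was 5 without DHT library 1, 4 without vehicle library 2 and 5 without vehicle library 3. With the replicate block the DHT counts were 4 and 8 in knockdown 10 and 10 and 5 in NTC, and the enzalutamide count in NTC was 6 and 8. The all-gene shares of these other fits are not given here.

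**Figure D2:**
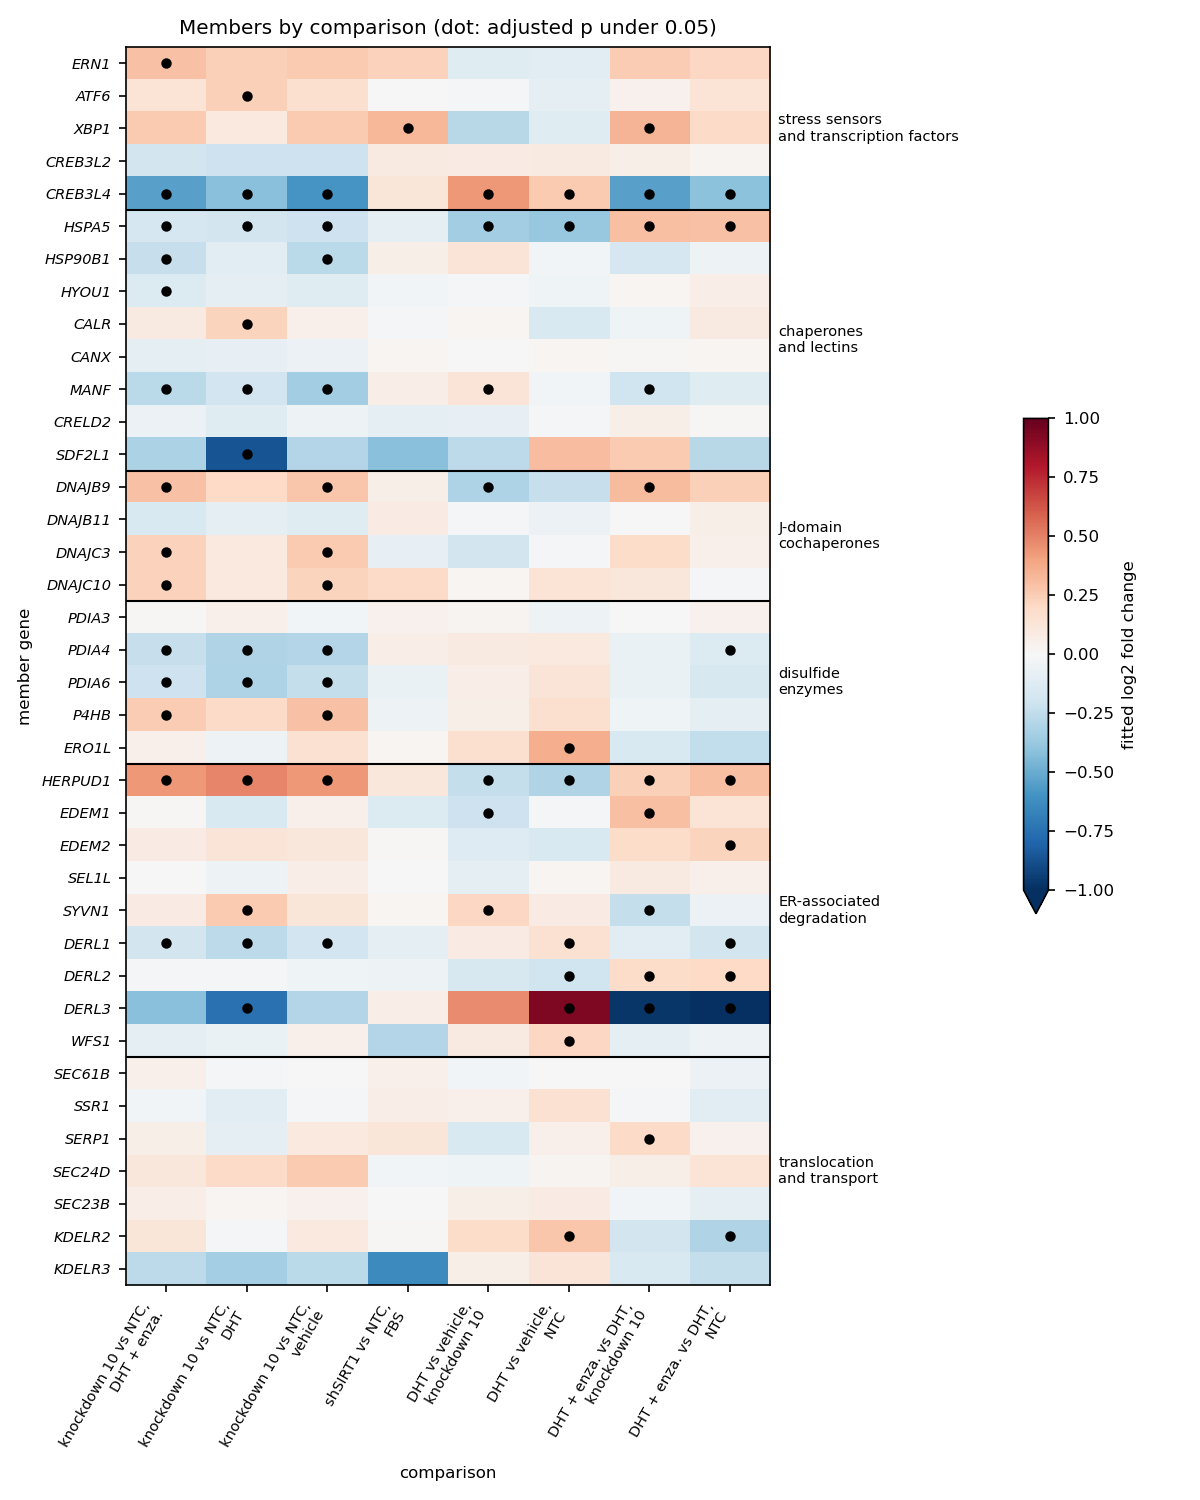
Fitted log2 fold changes (colour, red higher and blue lower in the first-named group) of 38 genes in 8 comparisons, with a dot where the adjusted p was under 0.05. HERPUD1 is red in all 3 knockdown 10 columns and CREB3L4, HSPA5, MANF, PDIA4, PDIA6 and DERL1 are blue there, while the translocation and transport genes carry no dot in those columns.

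The transcription factor that moved most often was CREB3L4. It was lower in knockdown 10 than in NTC under all 3 treatments, higher with DHT than with vehicle, and lower again with enzalutamide. CREB3L4 had 46.6, 38.2 and 39.4 CPM in knockdown 10 and 62.1, 60 and 58.8 CPM in NTC under DHT with enzalutamide. CREB3L4 under DHT had 68.2, 57.8 and 55 CPM in knockdown 10 and 90, 73.5 and 77.5 CPM in NTC. CREB3L4 in vehicle had 49.1, 41.6 and 43 CPM in knockdown 10 and 71.7, 62 and 67.4 CPM in NTC. All knockdown 10 libraries lay below all NTC libraries of the same treatment, and the DHT libraries of each line lay above its vehicle and its enzalutamide libraries. The knockdown difference was log2 fold change -0.54, SE 0.096, adjusted p = 0.000291 under DHT with enzalutamide, log2 fold change -0.42, SE 0.095, adjusted p = 0.00182 under DHT, and log2 fold change -0.59, SE 0.096, adjusted p = 0.000127 in vehicle. The DHT change against vehicle was log2 fold change 0.43, SE 0.096, adjusted p = 0.00322 in knockdown 10 and log2 fold change 0.26, SE 0.094, adjusted p = 0.044 in NTC. In NTC that DHT call was lost without NTC DHT library 1 or 3 or NTC vehicle library 2 or 3 (adjusted p = 0.07 to 0.239). Enzalutamide against DHT gave log2 fold change -0.54, SE 0.097, adjusted p = 0.000604 in knockdown 10 and log2 fold change -0.41, SE 0.094, adjusted p = 0.00283 in NTC. In FBS the libraries held 125, 114 and 93.2 CPM in shSIRT1 and 102, 105 and 99.1 CPM in NTC, which overlap (log2 fold change 0.12, SE 0.097, adjusted p = 0.589). Parts of CREB3L4 exons, 95 and 101 bases, overlap JTB and SLC39A1 on the other strand, and the strand setting used in counting was not given in the sources used here. In all, 16 of the 39 genes share some exon sequence with a gene on the other strand in the GENCODE basic annotation. That annotation need not match the one used in counting. Overlap lengths are the longest found between a single exon of each gene.

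XBP1, whose spliced and unspliced forms a gene-level count cannot part, was the single gene of the 38 that rose in FBS without the block. With the replicate block DNAJC10 also rose there (log2 fold change 0.18, adjusted p = 0.0252). WFS1 (-0.29, adjusted p = 0.0231) and SDF2L1 (-0.41, adjusted p = 0.00498) then fell. XBP1 had 149, 159 and 162 CPM in shSIRT1 and 116, 121 and 137 CPM in NTC, with no overlap (log2 fold change 0.33, SE 0.073, adjusted p = 0.0468). The call was lost without shSIRT1 library 1, 2 or 3 or NTC FBS library 1 or 2 (adjusted p = 0.0747 to 0.216), with libraries 1 and 2 of each group summed (adjusted p = 0.481) and in a fit of all 24 libraries (adjusted p = 0.0927). XBP1 also rose with enzalutamide in knockdown 10, at 163, 140 and 135 CPM with DHT and enzalutamide and 114, 118 and 112 CPM with DHT (log2 fold change 0.34, SE 0.116, adjusted p = 0.0444). That call was lost without knockdown 10 enzalutamide library 1 or 2 or knockdown 10 DHT library 1, 2 or 3 (adjusted p = 0.0532 to 0.165). In vehicle XBP1 had 146, 139 and 133 CPM in knockdown 10 and 137, 103 and 111 CPM in NTC, where library 1 of NTC lay among the knockdown values (log2 fold change 0.26, SE 0.116, adjusted p = 0.0974); with the replicate block this difference passed (adjusted p = 0.00494). In NTC it had 117, 104 and 101 CPM with DHT and 137, 103 and 111 CPM with vehicle (log2 fold change -0.12, SE 0.116, adjusted p = 0.473).

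ERN1 and ATF6, the sensor genes, each passed once. ERN1 had 26.9, 28.8 and 27.4 CPM in knockdown 10 and 26.9, 19.1 and 21.8 CPM in NTC under DHT with enzalutamide (log2 fold change 0.29, SE 0.102, adjusted p = 0.0357), and NTC library 1 was level with the lowest knockdown library. The call was lost without knockdown 10 enzalutamide library 2 or 3 or NTC enzalutamide library 2 or 3 (adjusted p = 0.0676 to 0.165), and in a fit of only the groups compared (adjusted p = 0.0519). ATF6 had 110, 91.6 and 107 CPM in knockdown 10 and 92, 84.7 and 84.9 CPM in NTC under DHT (log2 fold change 0.24, SE 0.065, adjusted p = 0.00613), and knockdown library 2 lay within the NTC range. In vehicle the knockdown differences of ERN1 (log2 fold change 0.26, adjusted p = 0.062) and ATF6 (0.16, adjusted p = 0.0714) did not pass, nor did their DHT changes in NTC (-0.11, adjusted p = 0.462, and -0.10, adjusted p = 0.266). With the replicate block both knockdown differences in vehicle passed (adjusted p = 0.045 for ERN1 and 0.0213 for ATF6). Their vehicle libraries held 22, 28 and 25.9 CPM of ERN1 in knockdown 10 and 21.9, 20.7 and 20.8 CPM in NTC, and 102, 107 and 104 CPM of ATF6 in knockdown 10 and 98.7, 91.1 and 90.7 CPM in NTC. CREB3L2, a collagen-secretion regulator of the same family as CREB3L4, passed in none of the comparisons without the replicate block, and with it was lower in knockdown 10 under DHT (log2 fold change -0.21, adjusted p = 0.023) and in vehicle (-0.20, adjusted p = 0.0344).

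HSPA5, the gene of BiP, changed in all 7 stripped-serum comparisons of knockdown, DHT and enzalutamide. It was lower in knockdown 10 than in NTC, lower with DHT than with vehicle, and higher once enzalutamide was added, in steps of 1.12 to 1.3-fold. HSPA5 had 796, 737 and 776 CPM in knockdown 10 and 900, 813 and 885 CPM in NTC under DHT with enzalutamide. HSPA5 under DHT had 664, 615 and 597 CPM in knockdown 10 and 727, 695 and 701 CPM in NTC. HSPA5 in vehicle had 822, 780 and 791 CPM in knockdown 10 and 951, 879 and 929 CPM in NTC. Knockdown 10 lay below NTC in each treatment with no overlap, and in both lines every DHT library lay below every vehicle and every enzalutamide library. The knockdown difference was log2 fold change -0.17, SE 0.056, adjusted p = 0.0258 under DHT with enzalutamide, log2 fold change -0.18, SE 0.056, adjusted p = 0.0157 under DHT and log2 fold change -0.21, SE 0.056, adjusted p = 0.00845 in vehicle. DHT against vehicle gave log2 fold change -0.35, SE 0.056, adjusted p = 0.000201 in knockdown 10 and log2 fold change -0.38, SE 0.056, adjusted p = 5.69e-05 in NTC. Enzalutamide against DHT gave log2 fold change 0.30, SE 0.056, adjusted p = 0.000941 in knockdown 10 and log2 fold change 0.29, SE 0.056, adjusted p = 0.000725 in NTC. The DHT and enzalutamide calls and the knockdown call in vehicle were kept in every alternative tried. The knockdown call under DHT was lost without knockdown 10 DHT library 3 (adjusted p = 0.0602) and in a fit of only the groups compared (adjusted p = 0.119). That under DHT with enzalutamide was lost without knockdown 10 enzalutamide library 2 or 3 or NTC enzalutamide library 1 or 3 (adjusted p = 0.0589 to 0.136), and in a fit of only the groups compared. In FBS, HSPA5 had 708, 716 and 760 CPM in shSIRT1 and 787, 789 and 765 CPM in NTC (log2 fold change -0.10, adjusted p = 0.42).

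MANF, a small ER protein that binds BiP and can be secreted, was likewise lower in knockdown 10. MANF had 65, 61.3 and 64.3 CPM in knockdown 10 and 74.7, 78.4 and 77 CPM in NTC under DHT with enzalutamide. MANF under DHT had 75.2, 69.4 and 74.8 CPM in knockdown 10 and 82.8, 83.6 and 83.3 CPM in NTC. MANF in vehicle had 68, 64.8 and 67.5 CPM in knockdown 10 and 87.3, 84.4 and 83.8 CPM in NTC. The 2 lines did not overlap in any treatment. The knockdown difference was log2 fold change -0.27, SE 0.045, adjusted p = 0.000159 under DHT with enzalutamide, log2 fold change -0.19, SE 0.045, adjusted p = 0.00273 under DHT and log2 fold change -0.35, SE 0.045, adjusted p = 1.13e-05 in vehicle, the DHT call being lost in a fit of only the groups compared (adjusted p = 0.06). In knockdown 10, MANF was higher with DHT than with vehicle (log2 fold change 0.13, SE 0.045, adjusted p = 0.0444), a call lost without knockdown 10 DHT library 1 or 3 or knockdown 10 vehicle library 1, 2 or 3 (adjusted p = 0.0867 to 0.248) and under 4 other alternatives, DESeq2 among them (adjusted p = 0.062), and lower with enzalutamide than with DHT alone (log2 fold change -0.20, SE 0.045, adjusted p = 0.00382), a call lost in a fit of only the groups compared (adjusted p = 0.0757). The DHT change of MANF in knockdown 10 thus ran opposite to that of HSPA5.

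HSP90B1, the ER form of the HSP90 chaperone, fell in knockdown 10 under 2 of the 3 treatments. HSP90B1 had 989, 949 and 1000 CPM in knockdown 10 and 1110, 1150 and 1180 CPM in NTC under DHT with enzalutamide (log2 fold change -0.23, SE 0.060, adjusted p = 0.00736). In vehicle it had 1040, 1000 and 983 CPM in knockdown 10 and 1210, 1230 and 1210 CPM in NTC (log2 fold change -0.27, SE 0.060, adjusted p = 0.00232). With DHT it had 1190, 982 and 1130 CPM in knockdown 10, where library 1 lay within the NTC range, and 1230, 1170 and 1170 CPM in NTC (log2 fold change -0.11, adjusted p = 0.152), and DHT against vehicle in NTC did not pass (-0.03, adjusted p = 0.76). The remaining chaperone calls were single. HYOU1, the exchange factor that resets BiP, had 250, 249 and 251 CPM in knockdown 10 and 292, 265 and 272 CPM in NTC under DHT with enzalutamide (log2 fold change -0.14, SE 0.050, adjusted p = 0.0323). The HYOU1 call was lost without knockdown 10 enzalutamide library 1, 2 or 3 or NTC enzalutamide library 1 or 3 (adjusted p = 0.0599 to 0.223), without the filter (adjusted p = 0.0514) and in a fit of only the groups compared (adjusted p = 0.0574). CALR had 1370, 1270 and 1210 CPM in knockdown 10 and 1110, 1070 and 1100 CPM in NTC under DHT (log2 fold change 0.22, SE 0.056, adjusted p = 0.00351), the opposite direction to HSPA5 and MANF in the same libraries.

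SDF2L1, a partner of the cochaperone DNAJB11 that keeps client proteins soluble, had the lowest fold change of all 38 genes in knockdown 10 under DHT. SDF2L1 had 11.1, 10.8 and 8.84 CPM in knockdown 10 and 11.4, 13.9 and 13.1 CPM in NTC under DHT with enzalutamide. SDF2L1 under DHT had 7.9, 9.81 and 7.94 CPM in knockdown 10 and 15.9, 14.9 and 15.8 CPM in NTC. SDF2L1 in vehicle had 11.7, 8.45 and 10.5 CPM in knockdown 10 and 13.2, 11 and 13.4 CPM in NTC. Knockdown 10 lay below NTC with no overlap under DHT (log2 fold change -0.86, SE 0.127, adjusted p = 3.3e-05, 95% interval -1.13 to -0.59), a 1.82-fold difference. The differences under DHT with enzalutamide (log2 fold change -0.32, adjusted p = 0.0569) and in vehicle (-0.29, adjusted p = 0.0775) did not pass, though the one under enzalutamide did with the replicate block (adjusted p = 0.0395). The difference between the DHT change in knockdown 10 and that in NTC was -0.57 (95% interval -0.94 to -0.19, adjusted p = 0.212), which did not pass, and it was -0.53, -0.68 and -0.53 without knockdown 10 DHT library 1, 2 and 3 (adjusted p = 0.0992 to 0.33). In FBS, SDF2L1 had 23.3, 19.9 and 18.6 CPM in shSIRT1 and 31.2, 28.4 and 22.6 CPM in NTC, an overlapping difference (-0.42, adjusted p = 0.139, or 0.00498 with the replicate block). The lectin chaperone CANX and the folding factor CRELD2 passed in no comparison.

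**Figure D3:**
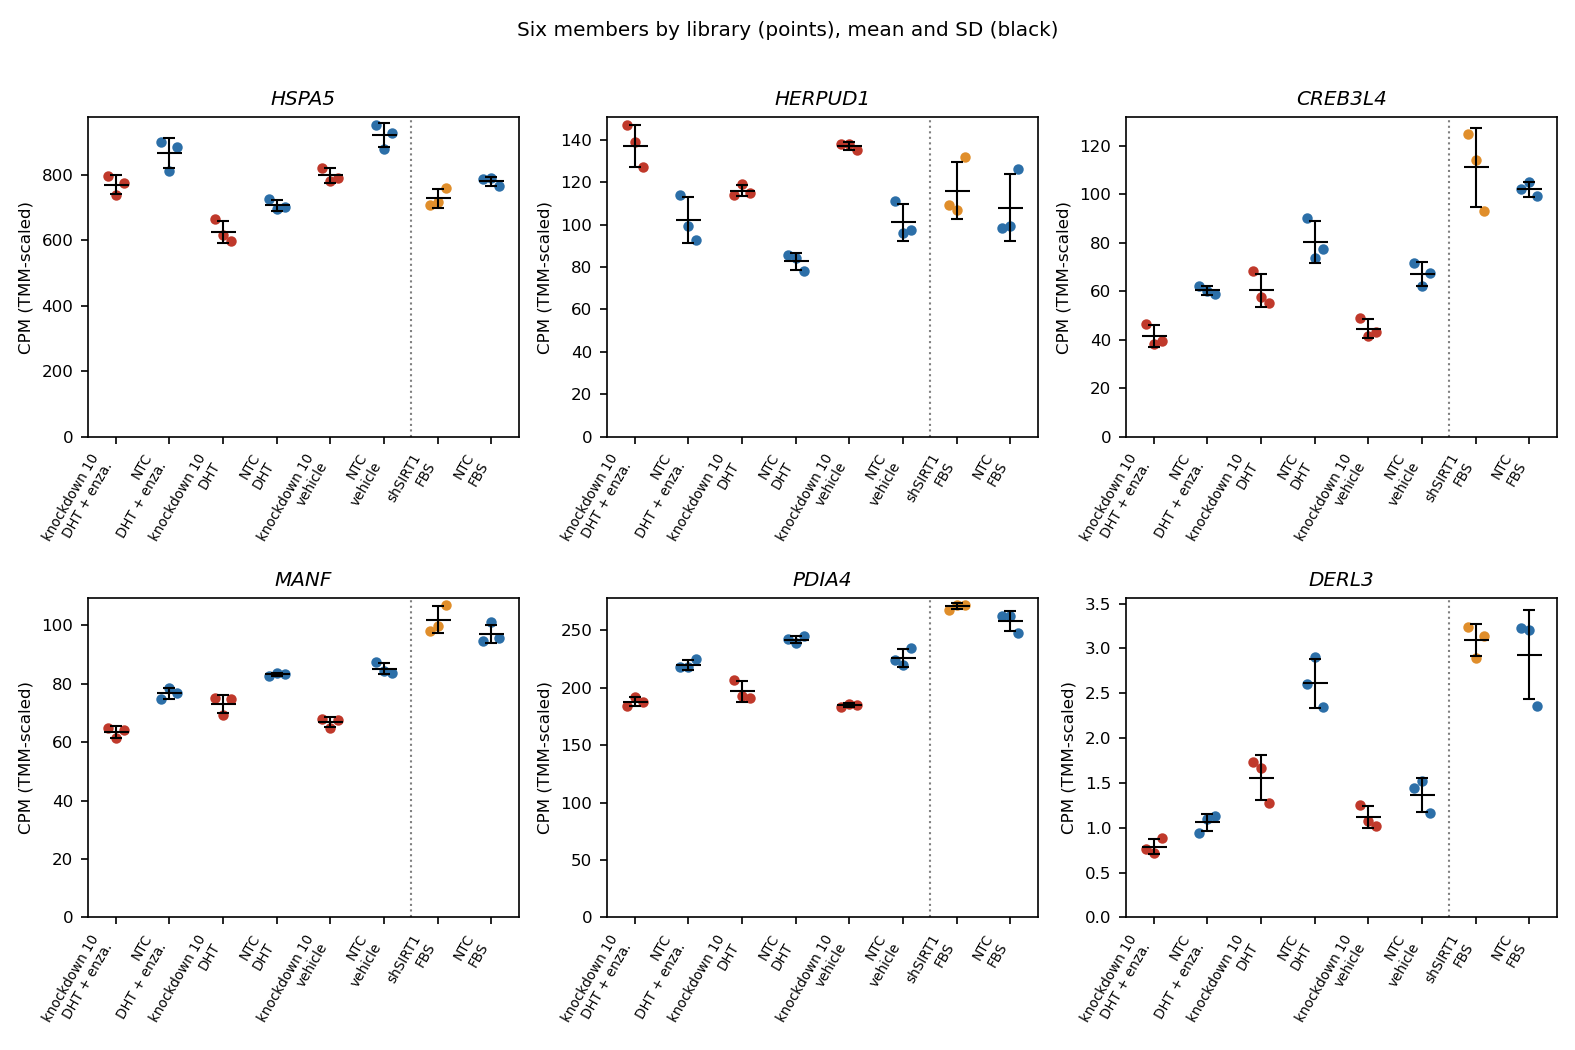
Levels of 6 genes (CPM, scaled by TMM, linear axis from 0) in every library, with coloured points for libraries and black marks for the mean and SD of 3, with the FBS set right of the dotted line. HSPA5, CREB3L4, MANF and PDIA4 lie lower and HERPUD1 higher in knockdown 10 (red) than in NTC (blue) in each treatment, and HSPA5 and HERPUD1 dip with DHT where CREB3L4 and, in NTC, DERL3 peak.

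Of the 4 J-domain cochaperones, which hand unfolded clients to BiP, DNAJB9, DNAJC3 and DNAJC10 rose in knockdown 10 under DHT with enzalutamide and in vehicle, where 15.4 and 15.5% of all genes rose. DNAJB11 had negative fold changes, as HSPA5 did, of -0.15 under DHT with enzalutamide (adjusted p = 0.0577, or 0.0192 with the replicate block) and -0.12 in vehicle (adjusted p = 0.113, or 0.0447 with the block). DNAJB9, which also restrains IRE1, had 31.4, 28.4 and 32.4 CPM in knockdown 10 and 29.4, 22.8 and 23.4 CPM in NTC under DHT with enzalutamide, overlapping in 1 library (log2 fold change 0.29, SE 0.095, adjusted p = 0.0269). In vehicle DNAJB9 had 32, 28.9 and 30.7 CPM in knockdown 10 and 27.5, 24.9 and 23.1 CPM in NTC (log2 fold change 0.28, SE 0.095, adjusted p = 0.0295). With DHT it had 24.2, 24.7 and 25 CPM in knockdown 10, below the vehicle libraries (DHT against vehicle, log2 fold change -0.31, SE 0.096, adjusted p = 0.0269). Its enzalutamide libraries lay above those with DHT alone (log2 fold change 0.32, SE 0.096, adjusted p = 0.0245). All 4 calls depended on single libraries. The first was lost without knockdown 10 enzalutamide library 1 or 3 or NTC enzalutamide library 2 or 3 (adjusted p = 0.0622 to 0.114), and the vehicle call without knockdown 10 vehicle library 1 or 3 or NTC vehicle library 2 or 3 (adjusted p = 0.0662 to 0.119). The DHT call was lost without knockdown 10 DHT library 1 or knockdown 10 vehicle library 1 or 3 (adjusted p = 0.0568 to 0.0823), and the enzalutamide call without knockdown 10 enzalutamide library 1 or 3 or knockdown 10 DHT library 1 (adjusted p = 0.0616 to 0.0838). In NTC, DNAJB9 passed only with the replicate block, at -0.23 with DHT (adjusted p = 0.0156) and 0.24 with enzalutamide (adjusted p = 0.0148).

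DNAJC3, an inhibitor of PERK and a BiP cochaperone, had 82, 81.1 and 79.4 CPM in knockdown 10 and 76.2, 65.3 and 65.8 CPM in NTC under DHT with enzalutamide (log2 fold change 0.23, SE 0.070, adjusted p = 0.0177). In vehicle DNAJC3 had 82.5, 77.3 and 83.7 CPM in knockdown 10 and 73.6, 64.7 and 65.2 CPM in NTC (log2 fold change 0.26, SE 0.070, adjusted p = 0.00774). Neither pair of groups overlapped, and the first call was lost without NTC enzalutamide library 2 or 3 (adjusted p = 0.0751 to 0.0756). DNAJC10, a reductase that opens disulfides of proteins bound for degradation, had 169, 172 and 174 CPM in knockdown 10 and 157, 140 and 142 CPM in NTC under DHT with enzalutamide (log2 fold change 0.23, SE 0.067, adjusted p = 0.0138). In vehicle DNAJC10 had 153, 168 and 153 CPM in knockdown 10 and 144, 135 and 127 CPM in NTC (log2 fold change 0.22, SE 0.067, adjusted p = 0.0167). Again the groups were apart. The calls were lost without NTC enzalutamide library 2 (adjusted p = 0.0594) under DHT with enzalutamide, and without knockdown 10 vehicle library 2 or NTC vehicle library 3 (adjusted p = 0.0685 to 0.0761) in vehicle. No cochaperone passed between knockdown 10 and NTC under DHT without the replicate block, with which DNAJB9 did (log2 fold change 0.21, adjusted p = 0.0237).

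Disulfide enzymes split. PDIA4 and PDIA6, isomerases found in complexes with BiP, were lower in knockdown 10 in all 3 treatments, while P4HB, the classical protein disulfide isomerase, was higher in 2. PDIA4 had 184, 192 and 188 CPM in knockdown 10 and 218, 218 and 225 CPM in NTC under DHT with enzalutamide. PDIA4 under DHT had 207, 193 and 191 CPM in knockdown 10 and 243, 239 and 245 CPM in NTC. PDIA4 in vehicle had 183, 186 and 185 CPM in knockdown 10 and 224, 220 and 235 CPM in NTC. The 2 lines did not overlap in any treatment, and the knockdown spread was small. The differences were log2 fold change -0.23, SE 0.044, adjusted p = 0.000667 under DHT with enzalutamide, log2 fold change -0.30, SE 0.044, adjusted p = 3.21e-05 under DHT and log2 fold change -0.29, SE 0.044, adjusted p = 5.25e-05 in vehicle, and these calls were kept in every alternative tried. Enzalutamide against DHT lowered PDIA4 in NTC (log2 fold change -0.14, SE 0.044, adjusted p = 0.0229), a call lost without NTC enzalutamide library 1 or 2 or NTC DHT library 1 or 3 (adjusted p = 0.0656 to 0.0825).

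PDIA6 showed the same direction as PDIA4 with wider spread. PDIA6 had 243, 215 and 222 CPM in knockdown 10 and 272, 258 and 259 CPM in NTC under DHT with enzalutamide. PDIA6 under DHT had 264, 227 and 223 CPM in knockdown 10 and 317, 291 and 276 CPM in NTC. PDIA6 in vehicle had 249, 215 and 217 CPM in knockdown 10 and 282, 268 and 256 CPM in NTC. No knockdown 10 library reached the lowest NTC library of its treatment. The differences were log2 fold change -0.21, SE 0.075, adjusted p = 0.0352 under DHT with enzalutamide, log2 fold change -0.31, SE 0.075, adjusted p = 0.00319 under DHT and log2 fold change -0.24, SE 0.075, adjusted p = 0.0176 in vehicle. The enzalutamide call was lost without knockdown 10 enzalutamide library 2 or 3 or NTC enzalutamide library 1, 2 or 3 (adjusted p = 0.0659 to 0.154), and the vehicle call without knockdown 10 vehicle library 2 or 3 or NTC vehicle library 1 (adjusted p = 0.0731 to 0.0957). P4HB had 1030, 913 and 915 CPM in knockdown 10 and 892, 764 and 753 CPM in NTC under DHT with enzalutamide (log2 fold change 0.25, SE 0.086, adjusted p = 0.0333). In vehicle P4HB had 994, 888 and 936 CPM in knockdown 10 and 840, 706 and 763 CPM in NTC (log2 fold change 0.29, SE 0.086, adjusted p = 0.0145). In both lines P4HB library 1 was the highest of its group. Its calls were lost without knockdown 10 enzalutamide library 1 or NTC enzalutamide library 2 or 3 (adjusted p = 0.108 to 0.127) under DHT with enzalutamide, and without knockdown 10 vehicle library 1 or NTC vehicle library 2 (adjusted p = 0.054 to 0.0702) in vehicle. ERO1L, the oxidase that recharges P4HB, rose with DHT in NTC, at 38.2, 36.1 and 37.2 CPM with DHT and 32.7, 27.9 and 26.6 CPM with vehicle (log2 fold change 0.36, SE 0.103, adjusted p = 0.0137), which was lost without NTC vehicle library 2 or 3 (adjusted p = 0.0559 to 0.0706). PDIA3 passed in no comparison.

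In ER-associated degradation, HERPUD1 was the gene that rose in knockdown 10 in every treatment. Its product is a membrane scaffold of the ligase complex that sends misfolded proteins to the proteasome. HERPUD1 had 147, 139 and 127 CPM in knockdown 10 and 114, 99.4 and 92.7 CPM in NTC under DHT with enzalutamide. HERPUD1 under DHT had 114, 119 and 115 CPM in knockdown 10 and 85.8, 84.3 and 78 CPM in NTC. HERPUD1 in vehicle had 138, 138 and 135 CPM in knockdown 10 and 111, 95.8 and 97.2 CPM in NTC. Every knockdown 10 library lay above every NTC library of its treatment, and the fitted differences were 1.35 to 1.4-fold. The difference was log2 fold change 0.43, SE 0.073, adjusted p = 0.000201 under DHT with enzalutamide, log2 fold change 0.49, SE 0.074, adjusted p = 4.16e-05 under DHT and log2 fold change 0.43, SE 0.073, adjusted p = 0.000194 in vehicle. With DHT against vehicle HERPUD1 fell, like HSPA5 (log2 fold change -0.24, SE 0.073, adjusted p = 0.0266 in knockdown 10 and log2 fold change -0.30, SE 0.074, adjusted p = 0.00556 in NTC). With enzalutamide against DHT it rose (log2 fold change 0.24, SE 0.073, adjusted p = 0.0244 in knockdown 10 and log2 fold change 0.30, SE 0.074, adjusted p = 0.00464 in NTC). The knockdown and NTC calls were kept in every alternative, while in knockdown 10 the DHT call was lost without knockdown 10 DHT library 1 or knockdown 10 vehicle library 1 or 2 (adjusted p = 0.0566 to 0.0601), and the enzalutamide call without knockdown 10 enzalutamide library 1 or knockdown 10 DHT library 1 (adjusted p = 0.0583 to 0.0952). In FBS it had 109, 107 and 132 CPM in shSIRT1 and 98.3, 99.3 and 126 CPM in NTC, where library 3 was the highest of each group (log2 fold change 0.11, SE 0.112, adjusted p = 0.68).

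The derlins, membrane proteins of the retrotranslocation channel, differed among themselves. DERL1 was lower in knockdown 10 in all 3 treatments. DERL1 had 73.4, 70.3 and 72.2 CPM in knockdown 10 and 85.8, 78.4 and 80.8 CPM in NTC under DHT with enzalutamide (log2 fold change -0.18, SE 0.048, adjusted p = 0.00644). Under DHT it had 81.6, 75.4 and 75.7 CPM in knockdown 10 and 95.2, 90.1 and 92.7 CPM in NTC (log2 fold change -0.26, SE 0.048, adjusted p = 0.000318). In vehicle it had 75, 73.1 and 71.7 CPM in knockdown 10 and 85.8, 83 and 81.7 CPM in NTC (log2 fold change -0.19, SE 0.048, adjusted p = 0.00523). The lines never overlapped. The call under DHT with enzalutamide was lost without NTC enzalutamide library 1 (adjusted p = 0.0642), and the other two were kept in every alternative tried. In NTC DERL1 rose with DHT (log2 fold change 0.15, SE 0.048, adjusted p = 0.0228) and fell with enzalutamide (log2 fold change -0.18, SE 0.047, adjusted p = 0.00743). Those calls were lost without NTC DHT library 1 or 3 or NTC vehicle library 2 or 3 (adjusted p = 0.0679 to 0.101) for DHT, and without NTC enzalutamide library 2 (adjusted p = 0.0532) for enzalutamide.

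DERL2 did not differ beyond the test between the lines, and moved with the drugs as HSPA5 did. In NTC it had 46.6, 45.4 and 41.8 CPM with DHT and enzalutamide, 38.1, 39.8 and 38.6 CPM with DHT and 46.3, 44.8 and 42.7 CPM with vehicle. In knockdown 10 it had 42.3, 43.5 and 45.6 CPM with DHT and enzalutamide and 36.4, 41.6 and 38 CPM with DHT. It fell with DHT in NTC (log2 fold change -0.20, SE 0.057, adjusted p = 0.0132) and rose with enzalutamide in knockdown 10 (log2 fold change 0.18, SE 0.057, adjusted p = 0.0335) and in NTC (log2 fold change 0.20, SE 0.057, adjusted p = 0.0135). The knockdown 10 call was lost without enzalutamide library 2 or 3 or DHT library 1 or 3 (adjusted p = 0.05 to 0.115), without the filter (adjusted p = 0.0519) and in a fit of only the groups compared (adjusted p = 0.15). The NTC calls were lost without NTC DHT library 1 or NTC vehicle library 1 (adjusted p = 0.0553 to 0.0567) for DHT, and without NTC enzalutamide library 1 or NTC DHT library 1 (adjusted p = 0.0561 to 0.0654) for enzalutamide.

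DERL3 had the largest fold changes of the 38 genes under DHT in NTC and under enzalutamide in both lines, at low counts. The libraries held 20, 22 and 27 counts in knockdown 10 and 33, 31 and 40 in NTC under DHT with enzalutamide, 43, 46 and 36 in knockdown 10 and 83, 86 and 68 in NTC under DHT, and 41, 33 and 31 in knockdown 10 and 43, 43 and 38 in NTC in vehicle. DERL3 had 0.766, 0.719 and 0.884 CPM in knockdown 10 and 0.947, 1.1 and 1.13 CPM in NTC under DHT with enzalutamide. DERL3 under DHT had 1.73, 1.67 and 1.28 CPM in knockdown 10 and 2.6, 2.9 and 2.35 CPM in NTC. DERL3 in vehicle had 1.25, 1.08 and 1.02 CPM in knockdown 10 and 1.44, 1.52 and 1.16 CPM in NTC. NTC with DHT lay above every other stripped-serum library. DHT against vehicle gave log2 fold change 0.93, SE 0.169, adjusted p = 0.000427 in NTC, a 1.91-fold rise, and log2 fold change 0.47, SE 0.183, adjusted p = 0.0762 in knockdown 10, which did not pass. Enzalutamide against DHT gave log2 fold change -0.97, SE 0.193, adjusted p = 0.00156 in knockdown 10 and log2 fold change -1.30, SE 0.173, adjusted p = 1.6e-05 in NTC. Knockdown 10 was below NTC under DHT (log2 fold change -0.75, SE 0.169, adjusted p = 0.0017), and the difference between the DHT changes of the lines was -0.46 (95% interval -0.99 to 0.06, adjusted p = 0.536), or -0.56 to -0.35 without single knockdown 10 DHT libraries. In the GENCODE annotation the longest exon overlap of DERL3 with SMARCB1 on the other strand is 2715 bases. DERL3 is known from plasma cells, whose listed marker genes, 4 of 5 symbols found, summed to 48.9 to 69.0 TPM in knockdown 10 and 33.5 to 39.6 TPM in NTC in stripped serum. Nearly all of that sum was SDC1, which epithelial cells also express, while IRF4 and IGJ stayed at or under 0.02 and 0.09 TPM there. The part of these markers in the result was not tested.

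The other degradation genes passed singly. SYVN1, the ubiquitin ligase of the pathway, had 53.2, 51 and 47.4 CPM in knockdown 10 and 43.1, 42.4 and 41.2 CPM in NTC under DHT (log2 fold change 0.26, SE 0.066, adjusted p = 0.00431), with all 3 knockdown libraries above all NTC libraries. Knockdown 10 had 43.8, 42.9 and 41.9 CPM with DHT and enzalutamide and 42, 46.7 and 41.9 CPM with vehicle, so that SYVN1 fell with enzalutamide against DHT (log2 fold change -0.24, SE 0.066, adjusted p = 0.0168) and rose with DHT against vehicle (log2 fold change 0.21, SE 0.066, adjusted p = 0.0263). Those calls were lost without knockdown 10 enzalutamide library 2 or 3 or knockdown 10 DHT library 1 (adjusted p = 0.0652 to 0.103) for enzalutamide, and without knockdown 10 DHT library 1 or 2 or knockdown 10 vehicle library 1 or 3 (adjusted p = 0.0615 to 0.158) for DHT. EDEM1, which trims mannose from glycoproteins marked for degradation, ran opposite to SYVN1 in knockdown 10, with 88.4, 106 and 95.7 CPM with DHT and enzalutamide, 74.6, 81.8 and 79.6 CPM with DHT and 85.8, 96 and 91.5 CPM with vehicle. EDEM1 thus rose with enzalutamide (log2 fold change 0.30, SE 0.065, adjusted p = 0.00315) and fell with DHT (log2 fold change -0.21, SE 0.065, adjusted p = 0.0262), the DHT call being lost without knockdown 10 DHT library 1 or knockdown 10 vehicle library 2 (adjusted p = 0.0736 to 0.0965).

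EDEM2, a related mannosidase, rose with enzalutamide in NTC, at 23.7, 23.1 and 21.5 CPM with DHT and enzalutamide and 20.6, 18.4 and 19.3 CPM with DHT (log2 fold change 0.22, SE 0.066, adjusted p = 0.015), which was lost without NTC enzalutamide library 1 or NTC DHT library 2 (adjusted p = 0.0621 to 0.0667). WFS1, an ER membrane protein mutated in Wolfram syndrome, rose with DHT in NTC, at 37.5, 35.3 and 35.7 CPM with DHT and 31.5, 29.2 and 33.4 CPM with vehicle (log2 fold change 0.21, SE 0.073, adjusted p = 0.0409), which was lost without NTC DHT library 1, 2 or 3 or NTC vehicle library 1 or 2 (adjusted p = 0.0656 to 0.187). The ligase adaptor SEL1L passed in no comparison.

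Translocation and transport genes passed in the drug comparisons alone. Between knockdown and NTC none of the 7 passed in edgeR or DESeq2, and at an unadjusted p under 0.05 there were 0 under DHT with enzalutamide, 0 under DHT, 1 in vehicle and 2 in FBS. Of all genes, 6297, 7293 and 6383 of 14558 were under that p in stripped serum, in the same order, and 2421 of 14329 in FBS. With the replicate block KDELR2 passed under DHT with enzalutamide (log2 fold change 0.12, adjusted p = 0.0309), and SEC24D and SERP1 passed under DHT (0.20 and -0.10) and in vehicle (0.27 and 0.10). SERP1, a small protein of the translocon, had 262, 248 and 249 CPM with DHT and enzalutamide and 232, 208 and 224 CPM with DHT in knockdown 10 (log2 fold change 0.19, SE 0.061, adjusted p = 0.0343), a call lost without knockdown 10 enzalutamide library 1 or 3 or knockdown 10 DHT library 2 (adjusted p = 0.051 to 0.103), and in a fit of only the groups compared (adjusted p = 0.103). KDELR2, a receptor that returns escaped ER proteins from the Golgi, followed the androgen in NTC, with 183, 163 and 162 CPM with DHT and enzalutamide, 233, 194 and 200 CPM with DHT and 189, 163 and 164 CPM with vehicle. It rose with DHT (log2 fold change 0.28, SE 0.085, adjusted p = 0.0183) and fell with enzalutamide (log2 fold change -0.30, SE 0.085, adjusted p = 0.0126). These calls were lost without NTC DHT library 1 or NTC vehicle library 2 or 3 (adjusted p = 0.0791 to 0.125) for DHT, and without NTC enzalutamide library 2 or 3 or NTC DHT library 1 (adjusted p = 0.0587 to 0.0934) for enzalutamide. In knockdown 10, KDELR2 passed in these comparisons only with the replicate block, at 0.17 with DHT (adjusted p = 0.00456) and -0.17 with enzalutamide (adjusted p = 0.00566). The translocon genes SEC61B and SSR1, the COPII coat genes SEC23B and SEC24D, and KDELR3 passed in no comparison without the replicate block, although KDELR3 had 2.59, 2.57 and 2.12 CPM in shSIRT1 and 4, 3.34 and 4.01 CPM in NTC in FBS, without overlap (log2 fold change -0.64, SE 0.189, adjusted p = 0.124).

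Across the treatments, 1 gene (HERPUD1) rose and 6 (CREB3L4, HSPA5, MANF, PDIA4, PDIA6 and DERL1) fell in knockdown 10 against NTC under DHT with enzalutamide, under DHT and in vehicle, while 20 of the 39, CREB3L1 included, passed in none of the 3. With the replicate block ATF6, DNAJB9 and P4HB also passed in all 3, and 13 of the 39 passed in none. The shares of all genes that passed in all 3 or in none are not given here, so these counts cannot be read as particular to this gene set. The genes gained in vehicle were ATF6, CREB3L2, DNAJB11, ERN1, HYOU1, SEC24D, SERP1 and XBP1. Of the 12 knockdown calls under DHT, 11 were kept without each knockdown 10 DHT library in turn. Over those 3 fits the log2 fold change was -0.97 to -0.82 for SDF2L1, -0.84 to -0.63 for DERL3, 0.17 to 0.26 for CALR, 0.18 to 0.32 for ATF6 and 0.21 to 0.29 for SYVN1. The 3 knockdown comparisons use different libraries and the same 2 lines. The DHT and enzalutamide comparisons share the DHT libraries of each line, so opposite signs in the 2 are no independent evidence. In NTC, CREB3L4, DERL1, DERL3 and KDELR2 were higher with DHT than with vehicle and lower with enzalutamide than with DHT, and HSPA5, HERPUD1 and DERL2 the reverse. In knockdown 10, CREB3L4, MANF and SYVN1 were higher with DHT and lower with enzalutamide, and HSPA5, DNAJB9, HERPUD1 and EDEM1 the reverse. These are lists of genes that passed, and no test of a difference between the lines. With the replicate block, KDELR2 in knockdown 10 and ERO1L and PDIA6 in NTC also rose with DHT and fell with enzalutamide. The reverse was then also seen for DERL2, DNAJC3, SERP1 and XBP1 in knockdown 10 and for DNAJB9 in NTC.

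**Figure D4:**
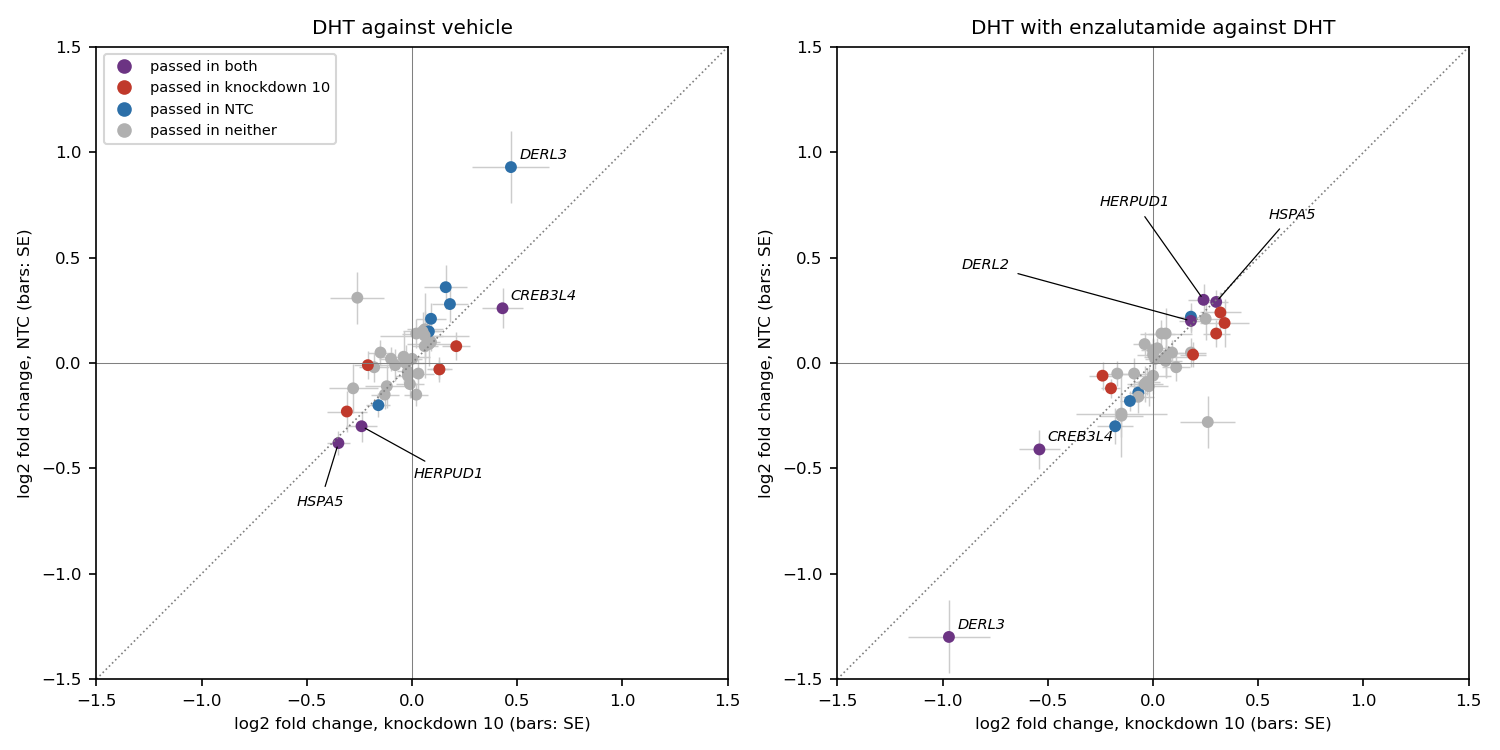
Log2 fold changes of 38 genes with DHT against vehicle (left) and with DHT and enzalutamide against DHT (right), in knockdown 10 (x axis) and NTC (y axis), with bars of 1 SE and a dotted line of equal change. HSPA5, HERPUD1 and CREB3L4 passed in both lines in both panels, and DERL3 lies farthest out, at 0.47 in knockdown 10 and 0.93 in NTC on the left, and -0.97 in knockdown 10 and -1.30 in NTC on the right.

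Between DHT with enzalutamide and vehicle no gene of the 38 passed in knockdown 10 or in NTC, in edgeR or in DESeq2, where 0.00687 and 0% of all genes rose in knockdown 10 and NTC and 0% fell in each. At an unadjusted p under 0.05 there was 1 of 38 in knockdown 10 and 2 in NTC, with 477 and 452 of all 14558 genes. The fold changes lay between -0.50 and 0.15 in knockdown 10 and between -0.37 and 0.17 in NTC, the lowest being DERL3 in each. For HSPA5 the 95% interval was -0.17 to 0.07 in knockdown 10 and -0.20 to 0.03 in NTC.

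Nor did the drug responses of the 2 lines differ beyond the test. The difference between the DHT changes of knockdown 10 and NTC passed for none of the 38 genes in edgeR or DESeq2. Of all genes, 0.0412% passed as higher and 0.158% as lower in edgeR. At an unadjusted p under 0.05 there were 5 of the 38, and 1598 of all 14558 genes. This DHT difference also passed for none of the 38 in edgeR without any single knockdown 10 DHT library. The difference between the enzalutamide changes passed for none in either tool, where 0.268 and 0.0824% of all genes passed as higher and lower in edgeR. At an unadjusted p under 0.05 there was 1 of the 38, and 1728 of all 14558 genes. The interval of the DHT difference was -0.14 to 0.19 for HSPA5, -0.16 to 0.28 for HERPUD1 and -0.11 to 0.46 for CREB3L4, on the log2 scale.

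The knockdown differences in vehicle and in FBS differed beyond the test for 7 genes. Of the 38, 3 had a higher and 4 a lower change in knockdown 10 in vehicle than in shSIRT1 in FBS, in a joint test of the 12 libraries (7.89 and 10.5%, with 7.48 and 6.28% of all genes). The total was 4 without knockdown 10 vehicle library 3 or NTC FBS library 1. CREB3L4 (log2 fold change -0.66, SE 0.135, adjusted p = 0.00491), MANF (log2 fold change -0.38, SE 0.073, adjusted p = 0.00384), PDIA4 (log2 fold change -0.32, SE 0.068, adjusted p = 0.00611) and HSP90B1 (log2 fold change -0.29, SE 0.074, adjusted p = 0.0181) were lower in that difference. Their own changes were -0.59, -0.35, -0.29 and -0.27 in vehicle, against 0.12, 0.07, 0.07 and 0.06 in FBS. DNAJC3 (log2 fold change 0.38, SE 0.086, adjusted p = 0.00927), P4HB (log2 fold change 0.38, SE 0.105, adjusted p = 0.0259) and WFS1 (log2 fold change 0.38, SE 0.111, adjusted p = 0.0336) were higher in it. Theirs were 0.26, 0.29 and 0.05 in vehicle, against -0.08, -0.05 and -0.29 in FBS. SIRT1 itself fell less in vehicle than in FBS, by a difference of 0.73 (adjusted p = 0.00156). Serum and knockdown line change together between these sets and cannot be told apart. The HSP90B1 call was lost without knockdown 10 vehicle library 3 or NTC FBS library 1 (adjusted p = 0.0525 to 0.056), the P4HB call without knockdown 10 vehicle library 1 or 3 or NTC vehicle library 2 or 3 or shSIRT1 library 1 or 2 or NTC FBS library 1 or 2 (adjusted p = 0.0549 to 0.0805), and the WFS1 call without knockdown 10 vehicle library 1 or 3 or NTC vehicle library 1 or 2 or shSIRT1 library 1, 2 or 3 or NTC FBS library 1 (adjusted p = 0.0539 to 0.107).

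Genes listed with the PERK arm, the third branch of the response, moved mostly in one direction within a comparison. These are RNA levels, and whether PERK itself was active was not tested. Of 20 genes listed as the PERK arm and targets of its factor ATF4, 10 rose and none fell in knockdown 10 under DHT with enzalutamide, 7 rose and 1 fell under DHT, and 12 rose and none fell in vehicle, where 15.4, 19.5 and 15.5% of all genes rose and 19.2, 23.5 and 19.1% fell. With DHT against vehicle 6 fell and none rose in each line, where 8.92% of all genes fell in knockdown 10 and 12.5% in NTC. With enzalutamide 12 rose in knockdown 10, 7 rose in NTC and none fell, where 8.08% of all genes rose in knockdown 10 and 12.6% in NTC. The median log2 fold changes in knockdown 10 were 0.47 under DHT with enzalutamide (0.00 for all genes), 0.20 under DHT and 0.50 in vehicle. In FBS none passed in edgeR and 2 in DESeq2, whose all-gene share is not given here, and the median was 0.23 (0.01 for all genes). At an unadjusted p under 0.05 there were 8 of the 20 in FBS, and 2421 of all 14329 genes. NUPR1, a stress-induced chromatin protein, had 322 ± 15.8 CPM in knockdown 10 and 222 ± 17.1 CPM in NTC under DHT with enzalutamide (SD, n = 3, as below), a log2 fold change of 0.54 (adjusted p = 0.000803). Its vehicle levels were 291 ± 27.5 CPM in knockdown 10 and 194 ± 3.47 CPM in NTC (0.58, adjusted p = 4e-04). CEBPG, a partner of ATF4, had 124 ± 8.2 CPM in knockdown 10 and 82.3 ± 6.42 CPM in NTC in vehicle (0.60, adjusted p = 2.59e-05). DDIT3, which encodes CHOP, had 24.8 ± 3.38 CPM with DHT and 43.9 ± 4.41 CPM with vehicle in NTC (-0.82, adjusted p = 0.0129). The list was drawn up with earlier results on related stress genes known, so its direction is no independent evidence.

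Of the other secretory pathway lists, the folding and translocon genes went both ways in knockdown 10, and the degradation, COPII and COPI and sensor genes that passed mostly rose. The shares of all genes that rose and fell were 15.4 and 19.2% under DHT with enzalutamide, 19.5 and 23.5% under DHT, and 15.5 and 19.1% in vehicle. Of 26 further folding enzymes, 6 rose and 5 fell in knockdown 10 under DHT with enzalutamide, 5 and 7 under DHT, and 6 and 5 in vehicle. The prolyl isomerase gene FKBP10 had 136 ± 7.83 CPM in knockdown 10 and 201 ± 5.23 CPM in NTC under DHT with enzalutamide (-0.57, adjusted p = 3.87e-07), and the J-domain gene DNAJC1 had 55.6 ± 1.57 CPM in knockdown 10 and 37.6 ± 1.42 CPM in NTC in vehicle (0.56, adjusted p = 1.49e-05). With DHT 5 of the 26 rose and 2 fell in knockdown 10 (13.3 and 8.92% of all genes), and 9 rose and 3 fell in NTC (17.4 and 12.5% of all genes), with PDIA5 at 38.9 ± 2.61 CPM with DHT and 22.4 ± 2.38 CPM with vehicle in NTC (0.80, adjusted p = 4.89e-06). Of 22 further degradation genes 8 rose and 2 fell in knockdown 10 under DHT with enzalutamide, 7 and 2 under DHT, and 7 and 1 in vehicle. Among them SVIP, an inhibitor of the pathway, had 310 ± 16 CPM in knockdown 10 and 208 ± 16.8 CPM in NTC in vehicle (0.58, adjusted p = 1.27e-05). Of 32 signal peptide, translocon and oligosaccharyltransferase genes 3 rose and 3 fell under DHT with enzalutamide, 8 and 5 under DHT, and 3 and 3 in vehicle. The signal peptidase subunit gene SEC11C followed the androgen, at 147 ± 9.54 CPM with DHT and 98.1 ± 1.35 CPM with vehicle in NTC (0.59, adjusted p = 7.67e-07). Of 36 tested COPII and COPI genes 6 rose and 1 fell under DHT with enzalutamide, 9 and 2 under DHT, and 8 and 0 in vehicle. Of 5 tested sensors and proteases beyond those above 4, 3 and 4 rose in the same order and none fell, with ATF6B at 47.5 ± 4.83 CPM in knockdown 10 and 25.6 ± 2.31 CPM in NTC under DHT (0.89, adjusted p = 1.5e-06). In FBS none of these lists held a gene that passed in edgeR, while DESeq2 called 2 of the signal peptide and translocon list and 2 of the COPII and COPI list. At an unadjusted p under 0.05 there were 3 of 26 folding, 2 of 22 degradation and 10 of 32 signal peptide and translocon genes in FBS. For COPII and COPI there were 5 of 36, and for sensors 0 of 6. Of all genes, 2421 of 14329 were under that p in FBS. All-gene shares of DESeq2 are not given here.

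Genes with an ERSE or ERSE-II in the window did not share one direction between knockdown 10 and NTC. Of the 11, 1 rose and 4 fell in knockdown 10 under DHT with enzalutamide, 2 and 3 under DHT, and 1 and 3 in vehicle, at medians of -0.10, -0.10 and -0.06, beside the all-gene shares just given. Of the 22 tested genes with a window and no exact match to either motif, 5 rose and 3 fell, 2 and 3, and 4 and 3 in the same order, at medians of 0.03, -0.03 and 0.05. HSPA5 and HERPUD1, whose promoters are printed above, each hold 1 such match and had opposite knockdown differences and the same sign with DHT and with enzalutamide. With enzalutamide 4 of the 11 rose in knockdown 10 and 2 in NTC, and none fell, where 8.08 and 12.6% of all genes rose. With DHT 2 of the 11 fell in each line and none rose, where 8.92 and 12.5% of all genes fell in knockdown 10 and NTC. Of the 22 others, 3 rose and 3 fell in knockdown 10 and 2 and 2 in NTC with enzalutamide, and 3 rose and 2 fell in knockdown 10 and 3 and 1 in NTC with DHT. These counts carry no test.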

How the data were processed

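LNCaP RNA was sequenced in 24 libraries, 3 in each of 8 groups taken from the sample titles. Per the submitters' processing notes, CASAVA 1.8.2, RSEM 1.2.31 and the hg19 build were used; the aligner and the strand setting are not given in the sources used here. The authors deposited RSEM expected counts and TPM for each gene, per the file headers. Expected counts were rounded to whole numbers and tested with edgeR 4.0.16 in R 4.3.3 (quasi-likelihood F test, two-sided, TMM scaling, filterByExpr), with Benjamini-Hochberg adjustment over all genes of a comparison and a threshold of 0.05. The FBS fit used 6 libraries and 14329 genes, the stripped-serum fit 18 libraries and 14558 genes, and the joint fit 12 libraries and 15345 genes. CPM are scaled by TMM. TPM were used for levels, with no test. FBS and stripped-serum levels were not tested against each other.

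The genes and the pathway lists were chosen with earlier results of these data known. Values in every library were given for the called genes with the 6 highest and 6 lowest fold changes of each comparison, and HSPA5, HSP90B1, XBP1, ERN1, ATF6 and CREB3L4 in any case; up to 2 genes were named per pathway list and comparison, those with the lowest adjusted p. Alternatives were RLE size factors, DESeq2 1.42.0, no filter, the replicate number as a block, each library left out, and other sets of libraries in the fit. Same-numbered libraries deviated together, at a correlation of 0.315 to 0.546 for the 3 pairs in FBS. In stripped serum the correlation was over 0.1 in 44 of 45 pairs, the lowest being 0.0384. Every pair within a comparison of 2 groups was over 0.1, and in stripped serum the same number was the best match in 37 of the 45. The numbers were therefore taken to pair libraries. The main fits held group means only, so their calls and missed calls do not allow for this pairing, which only the block fits used. Intervals are 95% intervals of the fit. The test was also run on simulated counts, drawn as independent libraries with a single dispersion for all genes. Those counts lack the pairing and the uneven spread of the libraries here, so that run cannot speak to either. Promoter windows came from RefSeq (GRCh38.p14), whose coordinates were not mixed with those of hg19.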

Additional observations from a re-analysis of the deposited data

Results flagged for a closer look

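Between knockdown 10 in vehicle and shSIRT1 in FBS, the knockdown difference itself differed in the joint edgeR test for 7 of the 38 genes tested. It was higher for 7.89% and lower for 10.5% of the 38, with 7.48 and 6.28% of all genes. The difference between the 2 log2 fold changes was -0.66 for CREB3L4 (adjusted p = 0.00491), -0.38 for MANF (adjusted p = 0.00384), -0.32 for PDIA4 (adjusted p = 0.00611) and -0.29 for HSP90B1 (adjusted p = 0.0181). It was 0.38 for DNAJC3 (adjusted p = 0.00927), 0.38 for P4HB (adjusted p = 0.0259) and 0.38 for WFS1 (adjusted p = 0.0336). The P4HB and WFS1 calls were each lost on leaving out any of 8 single libraries, and the HSP90B1 call on leaving out either of 2. All knockdown 10 vehicle libraries were below all NTC vehicle libraries for CREB3L4, MANF, PDIA4 and HSP90B1. Serum and knockdown line cannot be told apart in this difference.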

How the results depend on the processing

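Of 76 named calls, 39 were kept under every alternative and 37 were lost under at least 1, of which 36 were lost without at least 1 library; none changed sign, and none was lost with the replicate block. Of 6 further calls outside the naming rule (HSPA5 in 2 comparisons, MANF, HYOU1, DERL2 and DERL1), 5 were lost under at least 1 alternative. With the replicate block the number of the 38 genes called became 4 in FBS, 20 for knockdown 10 in vehicle, 12 and 15 for DHT in knockdown 10 and NTC, and 14 for enzalutamide in NTC. All-gene shares under the alternatives are not given here. The FBS count was 0 with libraries 1 and 2 of each group summed. It was 13 without both libraries numbered 3, a fit that rests on the small spread between libraries 1 and 2 alone. The enzalutamide count in knockdown 10 was 7 in a fit of only the groups compared. With single libraries left out, counts ran from 0 to 2 in FBS, 7 to 13 for knockdown 10 under DHT with enzalutamide, 3 to 8 and 4 to 8 for DHT in knockdown 10 and NTC, 6 to 10 for enzalutamide in knockdown 10, and 4 to 7 for the joint test. In fits of only the groups compared the DHT calls of EDEM1 (adjusted p = 0.0598) and SYVN1 (0.135) and the enzalutamide call of SYVN1 (0.0577) in knockdown 10 were lost. In NTC the DHT call of CREB3L4 was lost with RLE size factors (0.0506), and without the filter so were the DHT call of WFS1 (0.0514) and the enzalutamide call of PDIA4 (0.0533). The cause of these shifts was not tested, apart from the fewer libraries that some fits hold. Genes at low counts, such as DERL3 with 20 to 86 counts per stripped-serum library, have wide intervals, and FBS libraries held fewer counts than those in stripped serum.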
